A study of Drosophila melanogaster with 4 samples.

Results

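The genes described here encode the proteins of the *Drosophila melanogaster* mitochondrial ribosome. Membership was set by name: every gene whose current NCBI symbol, reached through the Entrez identifier of its array probe, begins with mRpL (large subunit) or mRpS (small subunit). The family itself was chosen with earlier results of these data known. The naming rule gave 69 of the 12058 genes with a probe, of which 43 belonged to the large and 26 to the small subunit. Testing required a value in each of the replicates, a condition met by 68 of the 69 (42 large and 26 small) and by 10042 genes in all. Each of the 69 was represented by 1 probe.

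Whole larvae of the third instar lacking normal function of *trx* (trithorax, a histone methyltransferase that keeps target genes active) were compared with wild-type larvae on spotted arrays of oligonucleotides, to find the genes that depend on *trx*. The mutants carried the heteroallelic combination trxE3 over trxB11 in a w1118 background, and the wild type was w1118; +; +, an isogenic line of the DrosDel collection. RNA of the wild type was pooled and hybridised as the other channel on every array, so each value is a ratio of mutant over wild type and the spread of the wild type enters no p-value. There were 2 biological replicates of mutant RNA with 2 arrays each, the dyes being exchanged within a replicate. Arrays 1 and 2 belonged to replicate 1 and arrays 3 and 4 to replicate 2, and mutant RNA was labelled with Cy3 on arrays 1 and 3 and with Cy5 on arrays 2 and 4. Both genotypes were raised at 21 °C on food with 0.025% bromophenol blue, a dye that stages wandering larvae by the colour of the gut. The study's methods list chromosomes X, Y and 2 of the mutants as replaced from the isogenic line. The third chromosome, which carries *trx*, is not in that list, so its background cannot be told apart from the genotype. The mutant stocks were kept over the balancer TM6c, and larvae without its Tubby marker were collected. Whether the replicates came from separate cultures is not stated, and p-values then measure only the spread between these 2 extractions.

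The mitochondrial ribosome translates the few messenger RNAs of the mitochondrial genome, which encode subunits of the respiratory chain and the ATP synthase. Its RNAs come from the mitochondrial genome, whereas its proteins are encoded in the nucleus, made on cytosolic ribosomes and imported. As in bacteria, the small subunit decodes the messenger RNA and the large subunit forms the peptide bond. Proteins numbered up to L36 and S21 take their names from bacterial counterparts, and higher numbers were given to proteins first found in mitochondrial ribosomes, most of which have none.

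All 68 genes tested had a mean log2 ratio below 0, that is, less RNA in the *trx* mutants relative to wild type. The median log2 ratio was -0.69 (a 1.61-fold lower level), and the individual means ran from -1.48 to -0.05. The median of all 10042 genes was -0.02, and 5434 of them lay below 0. The 68 genes had a median of -0.71 in replicate 1 and -0.63 in replicate 2. In whole larvae, fewer cells of a type and less RNA per cell cannot be told apart.

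With limma across all genes, at a Benjamini-Hochberg adjusted p under 0.05 together with a minimum change of 2-fold, 10 of the 68 genes (14.7%) were called lower, beside 2.52% of all genes tested. No mitochondrial ribosomal protein gene was called higher, beside 1.57% of all genes. Without array 3, 6 genes were called lower, of which 5 were among the 10. Dropping the minimum fold, 53 of the 68 (77.9%) were lower at an adjusted p under 0.05, beside 8.18% of all genes, and 0 were higher, beside 6.49%. At an unadjusted p under 0.05 there were 64 of 68, beside 3833 of all 10042 genes tested. Of the 65 genes measured on all 4 arrays, 64 were below 0 on every one of them, beside 34.4% of the 7263 genes with 4 values. The exception was mRpL45.

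**Figure D1:**
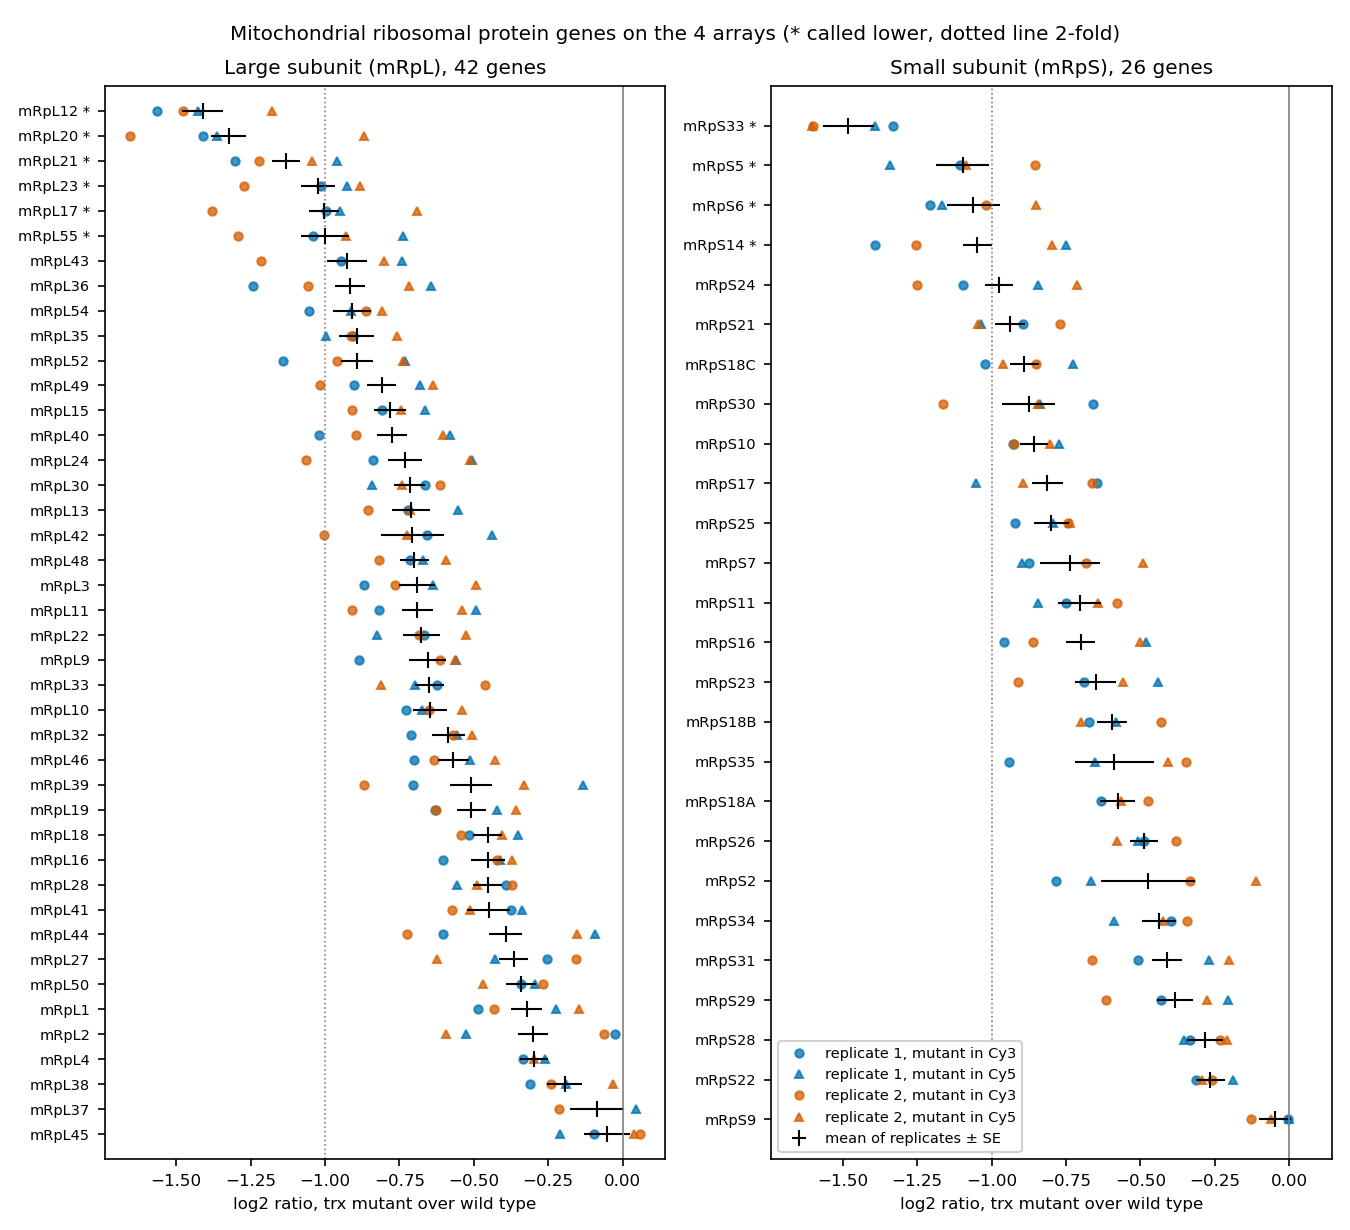
Log2 ratios (mutant over wild type, x axis) of the 42 large subunit and 26 small subunit genes tested, each row a gene. Points are the 4 arrays (colour, replicate; circle, mutant in Cy3; triangle, mutant in Cy5), the black mark is the mean of the 2 replicates with its moderated SE, and asterisks mark the 10 genes called lower; nearly all points lie left of 0.

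The lowest mean belonged to mRpS33, a small subunit protein without a bacterial counterpart. Its log2 ratios on arrays 1 to 4 were -1.33, -1.39, -1.60 and -1.60. The arrays of replicate 2 were the lower ones, and the mean of -1.48 (SE 0.086, n = 2 replicates, limma adjusted p = 0.022) was a 2.79-fold decrease. The other small subunit genes called lower carry bacterial numbers. mRpS5, whose bacterial counterpart lies where the messenger RNA enters, gave -1.11, -1.34, -0.85 and -1.09. Replicate 1 was lower, and the mean was -1.10 (SE 0.089, limma adjusted p = 0.029). mRpS6, a protein of the platform of the small subunit, gave -1.21, -1.17, -1.02 and -0.85. Again both arrays of replicate 1 were below both of replicate 2, with a mean of -1.06 (SE 0.089, limma adjusted p = 0.029). mRpS14, a protein of the head of the small subunit in bacteria, gave -1.39, -0.75, -1.25 and -0.80. Its Cy3 arrays were low and its Cy5 arrays less so in both replicates, and the mean was -1.05 (SE 0.049, limma adjusted p = 0.019). mRpS14 fell short of 2-fold on the Cy5 arrays alone.

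In the large subunit, mRpL12 had the lowest mean. Its bacterial counterpart forms the flexible stalk that recruits translation factors, and in mammals the protein also binds the mitochondrial RNA polymerase. The log2 ratios were -1.56, -1.43, -1.48 and -1.18. All 4 arrays were beyond 2-fold, with a mean of -1.41 (SE 0.069, limma adjusted p = 0.019), or 2.66-fold lower. mRpL20, whose bacterial counterpart is an early assembly protein of the large subunit, gave -1.41, -1.36, -1.65 and -0.87. Array 4 stood above the others, and the mean was -1.32 (SE 0.060, limma adjusted p = 0.019). mRpL21, another protein of the bacterial core set, gave -1.30, -0.96, -1.22 and -1.04. The replicate means were both -1.13 (SE 0.047, limma adjusted p = 0.019).

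The remaining large subunit genes called lower lay at the 2-fold limit. mRpL23, which in bacteria sits at the exit of the nascent peptide tunnel, gave -1.01, -0.93, -1.27 and -0.88. The mean was -1.02 (SE 0.057, limma adjusted p = 0.021). mRpL17, whose bacterial counterpart lies near the same exit, gave -0.997, -0.95, -1.38 and -0.69 with a mean of -1.004 (SE 0.051, limma adjusted p = 0.020). mRpL55, the only large subunit gene of the 10 with a number above the bacterial series, gave -1.04, -0.74, -1.29 and -0.93. Its mean (SE 0.081, limma adjusted p = 0.029) was a 2.00-fold decrease. Array 3 was the lowest of the 4 for all of mRpL23, mRpL17 and mRpL55. Without array 3, mRpL17, mRpL20, mRpL23, mRpL55 and mRpS14 were no longer called and mRpS21 was. Without array 1, mRpL17, mRpL55 and mRpS14 were no longer called, leaving 7.

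No gene had a change of 2-fold or more without passing the test. The next in order were mRpS24 and mRpS21, the latter the last protein of the bacterial small subunit series. mRpS24 gave -1.10, -0.84, -1.25 and -0.71 (mean -0.98, SE 0.047, limma adjusted p = 0.019). mRpS21 gave -0.90, -1.03, -0.77 and -1.05 (mean -0.94, SE 0.050, limma adjusted p = 0.021). The Cy3 arrays were the lower ones for mRpS24 and the higher ones for mRpS21. In all, 31 genes (19 large and 12 small) were 1.5 to 2-fold lower with an adjusted p under 0.05, with means from -0.98 to -0.59. A further 12 genes (8 large and 4 small) passed the test with less than a 1.5-fold change, from -0.58 to -0.37. The other 15 genes (9 large and 6 small) had adjusted p-values of 0.05 or more, and their means ran from -0.71 to -0.05. Of the 68 genes, 56 were in the lowest 10% of all genes tested.

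The 6 genes with the highest means, among those with values on 4 arrays, ran from -0.30 to -0.05. mRpS9, whose bacterial counterpart contacts the transfer RNA in the P site, gave -0.01, -0.00, -0.13 and -0.06. Its mean was -0.05 (SE 0.054, limma adjusted p = 0.551). mRpL45, a membrane-facing protein of the large subunit in mammals, gave -0.10, -0.21, 0.06 and 0.04. It was below 0 in replicate 1 and above in replicate 2 (mean -0.05, SE 0.077, limma adjusted p = 0.645). mRpL38 gave -0.31, -0.19, -0.24 and -0.03, with a mean of -0.19 (limma adjusted p = 0.130). mRpS22 had a mean of -0.26 (limma adjusted p = 0.066) and mRpS28 a mean of -0.28 (limma adjusted p = 0.080), both below 0 on all 4 arrays. mRpL2, whose bacterial counterpart is needed for peptidyl transfer, gave -0.03, -0.53, -0.06 and -0.59. It was near 0 on the Cy3 arrays and lower on the Cy5 arrays of both replicates, so that the mean of -0.30 (SE 0.050, limma adjusted p = 0.060) averaged unlike values.

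Differences between replicates were small for most of the genes, with a median gap of 0.10 between replicate means, beside 0.098 for all genes. Across the 68 genes the replicate means had a Pearson correlation of 0.88 and a Spearman correlation of 0.87, as a description over genes that share the wild-type pool. The gap was widest for mRpS2, which was named after its values were seen. mRpS2 gave -0.78, -0.66, -0.33 and -0.11, so that replicate 1 was at -0.72 and replicate 2 at -0.22 (limma adjusted p = 0.147). mRpS35 had the same order, with -0.80 in replicate 1 and -0.38 in replicate 2 (limma adjusted p = 0.088). mRpL37 had values on arrays 2 and 3 only, of 0.05 and -0.21, which mixes replicate with dye. mRpL4 and mRpS18A had values on 3 arrays. mRpL51 had none and was not tested.

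**Figure D2:**
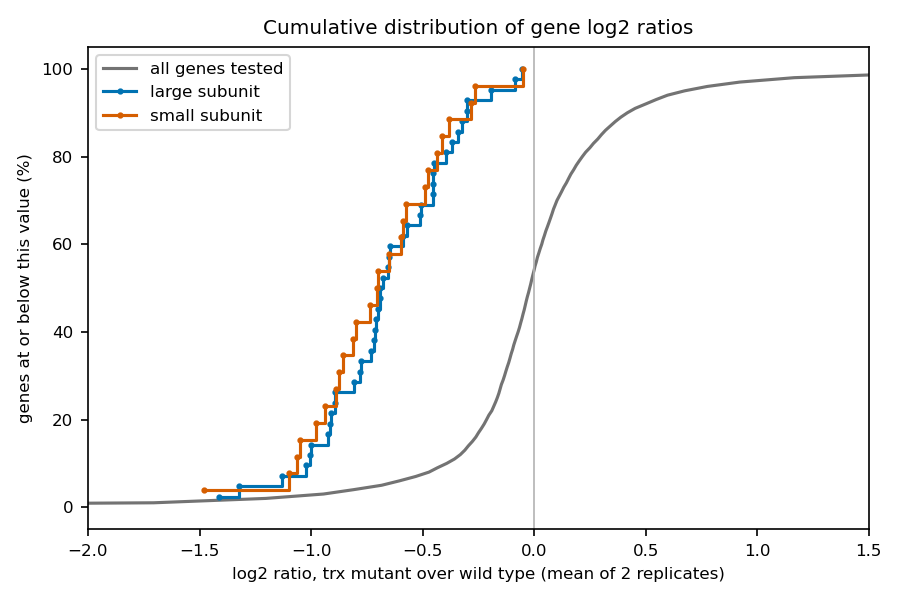
Cumulative share of genes (y axis, %) at or below each log2 ratio (x axis, mean of 2 replicates) for the 42 large subunit genes, the 26 small subunit genes and all 10042 genes tested. The curves of the subunits lie on each other and to the left of all genes, with medians of -0.68, -0.70 and -0.02.

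Large and small subunit genes had nearly the same distribution. The median log2 ratio was -0.68 for the 42 large subunit genes and -0.70 for the 26 small subunit genes. The large subunit had 6 genes called lower (14.3%) and 33 lower at any fold (78.6%). The small subunit had 4 (15.4%) and 20 (76.9%), beside 2.52% and 8.18% of all genes tested. Without array 3, 2 large and 4 small subunit genes were called. On arrays 1 to 4 the large subunit medians were -0.71, -0.56, -0.77 and -0.59, and the small subunit medians were -0.77, -0.73, -0.67 and -0.61. The large minus small difference was 0.05, 0.17, -0.09 and 0.02 on those arrays, 0.11 in replicate 1 and 0.01 in replicate 2. It thus changed sign between arrays and was smaller than its own spread over them. With 2 replicates no exact test of this difference can reach 0.05, and none was made. The mammalian counterparts of mRpS30 and mRpS18A lie in the large subunit despite their names. Counting both there, a choice made after seeing the data, left the medians at -0.68 and -0.70.

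Genes with bacterial numbers and those with higher numbers were also set side by side. Over all genes tested, 2.52% were called lower and 8.18% were lower at any fold. Of the 40 with bacterial numbers, 8 (20%) were called lower and 35 (87.5%) were lower at any fold, with a median of -0.70. Of the 28 with higher numbers, 2 (7.14%) were called, mRpS33 and mRpL55, and 18 (64.3%) were lower at any fold, with a median of -0.58. Within the small subunit the medians were -0.77 for 14 and -0.54 for 12 genes, and within the large subunit -0.68 for 26 and -0.63 for 16. The medians of both classes differed by array. On array 3 the order was turned, at -0.68 for bacterial and -0.73 for higher numbers, and the difference was not tested.

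Neighbouring proteins of the particle gave like values in some places and not in others. The stalk region (mRpL10, mRpL11 and mRpL12) had means of -0.65, -0.69 and -1.41, and the tunnel exit (mRpL22, mRpL23 and mRpL24) had -0.68, -1.02 and -0.73. All 6 were lower at an adjusted p under 0.05. For mRpL2, mRpL3 and mRpL4, whose bacterial counterparts reach towards the catalytic centre or the upper tunnel, the means were -0.30, -0.69 and -0.30, and mRpL3 alone passed the test. The 4 platform genes mRpS6, mRpS11, mRpS18C and mRpS21 had means of -1.06, -0.70, -0.89 and -0.94, all of which passed. These proteins were grouped by site, with earlier results of these data known, and mRpL2 was also among the 6 highest named above. The sets are not complete: mRpL17 (-1.004), placed near the tunnel exit above, was not in that set. mRpS29, known in mammals as DAP3, a GTP-binding protein linked to cell death, had a mean of -0.38 (limma adjusted p = 0.057).

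**Figure D3:**
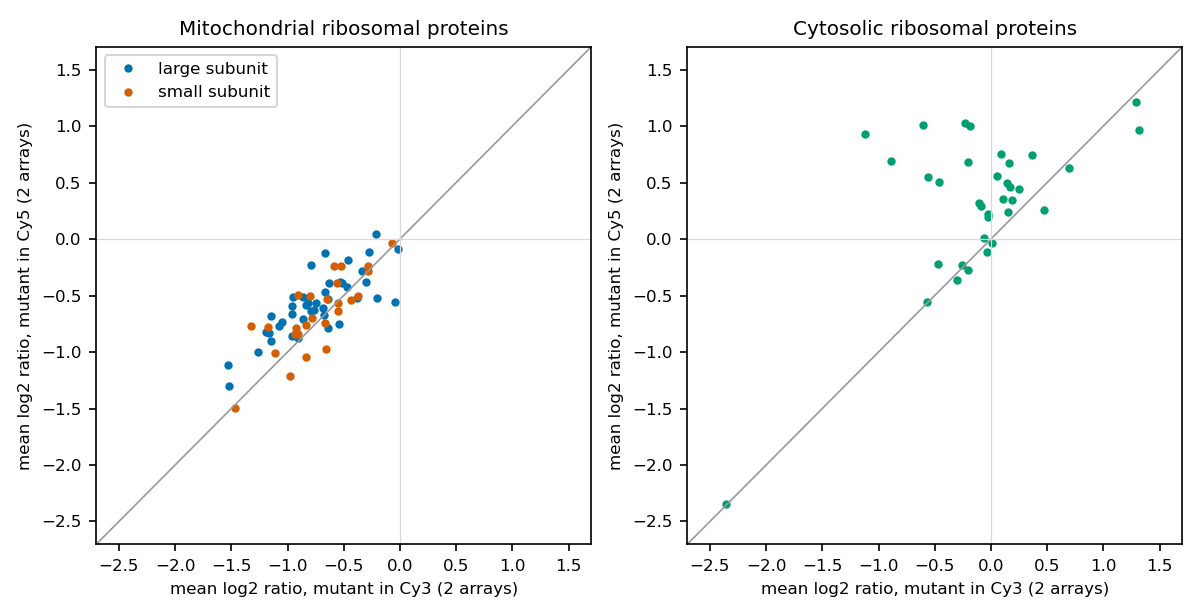
Mean log2 ratio of the 2 arrays with mutant RNA in Cy3 (x axis) against the 2 with mutant RNA in Cy5 (y axis), one point a gene, with the line of equality, for mitochondrial (left) and cytosolic (right) ribosomal protein genes with values in both orientations. Mitochondrial genes lie below 0 on both axes, except mRpL37 (0.05 in Cy5), but mostly above the line (median gap 0.14). Several cytosolic genes are above 0 in Cy5 and below 0 in Cy3.

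The size of the decrease differed with the dye. The median over the 68 genes was -0.76 with mutant RNA in Cy3 and -0.59 in Cy5, and the median gap, Cy5 minus Cy3, was 0.14 (0.19 for the large and 0.07 for the small subunit), beside -0.00 for all genes. Of the 65 genes with 4 values, 42 were less low in Cy5 in both replicates and 13 were lower in Cy5 in both. The same counts were not made over all genes. The size of the gap had a median of 0.18, beside 0.11 over all genes. mRpL39 had the widest gap, 0.55, with -0.71 and -0.87 in Cy3 and -0.13 and -0.33 in Cy5. mRpL44 gave -0.60 and -0.72 in Cy3 and -0.09 and -0.15 in Cy5. Both were still below 0 on all 4 arrays. Fitting the arrays of one orientation only, as settings added after seeing the data, called 13 genes lower in Cy3, beside 3.43% of the 8814 genes tested in that fit, and 7 in Cy5, beside 2.73% of 8173. The large subunit had 9 of the 13 and 3 of the 7.

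**Figure D4:**
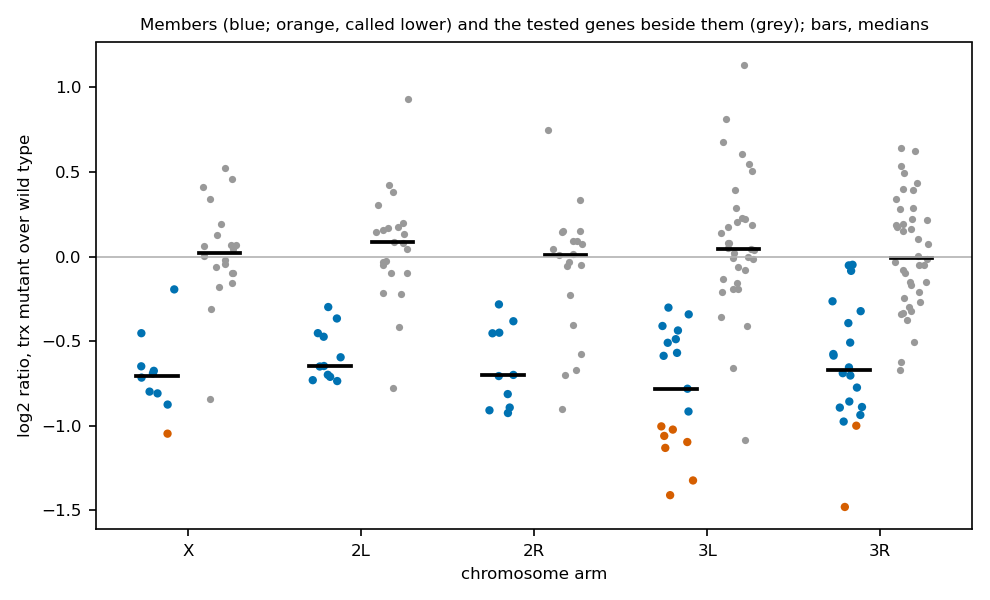
Log2 ratio (y axis, mean of 2 replicates) of the mitochondrial ribosomal protein genes tested (blue; orange, called lower) and of the nearest tested gene on each side of them (grey) by chromosome arm (x axis), with medians as bars. The ribosomal protein genes lie below 0 on each arm while their 136 neighbours are spread around 0, with a median of 0.04.

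The genes are scattered over the genome, and no pair of them was adjacent in the order of tested genes. Their median was -0.70 on X (10 genes), -0.65 on 2L (11), -0.70 on 2R (10), -0.78 on 3L (17) and -0.67 on 3R (20). Calls at 2-fold were less even. Arm 3L held 7 of the 10, which was 41.2% of its 17 genes, beside 4.58% of all genes tested on that arm. Off 3L, 3 of 51 (5.88%) were called, beside 2.08% of all genes there. Without array 3, 4 of 17 were called on 3L and 2 of 50 elsewhere, and without array 1 these counts were 6 of 17 and 1 of 50. The shares of all genes called lower on 3L were 4.17% without array 3 and 4.47% without array 1. With a minimum of 1.5-fold the order turned, at 9 of 17 on 3L, beside 7.37% of all genes there, and 32 of 51 elsewhere. The calls on 3L were mRpL12, mRpL17, mRpL20, mRpL21, mRpL23, mRpS5 and mRpS6. Without the minimum fold the shares were closer, at 14 of 17 on 3L (82.4%) and 39 of 51 elsewhere (76.5%), with medians of -0.78 and -0.69. The shares of all genes tested that were lower at any fold were 10.3% on 3L and 7.91% elsewhere. The difference between arms was not tested. The part that the chromosome background plays in these values was not tested.

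The genes beside them lay around 0. The nearest tested gene on each side gave 136 neighbours, with a median log2 ratio of 0.04 and quartiles of -0.15 and 0.20. Of these, 61 were below 0. At an adjusted p under 0.05 and any fold, 11 (8.09%) were lower and 14 higher, beside 8.18% and 6.49% of all genes. One neighbour was called at 2-fold, CG11267 beside mRpL20, at -1.08 (limma adjusted p = 0.020). The neighbours include other genes of mitochondrial translation. ValRS-m lies beside mRpL12 and ArgRS-m beside mRpS9, which encode the mitochondrial valyl- and arginyl-tRNA synthetases.

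**Figure D5:**
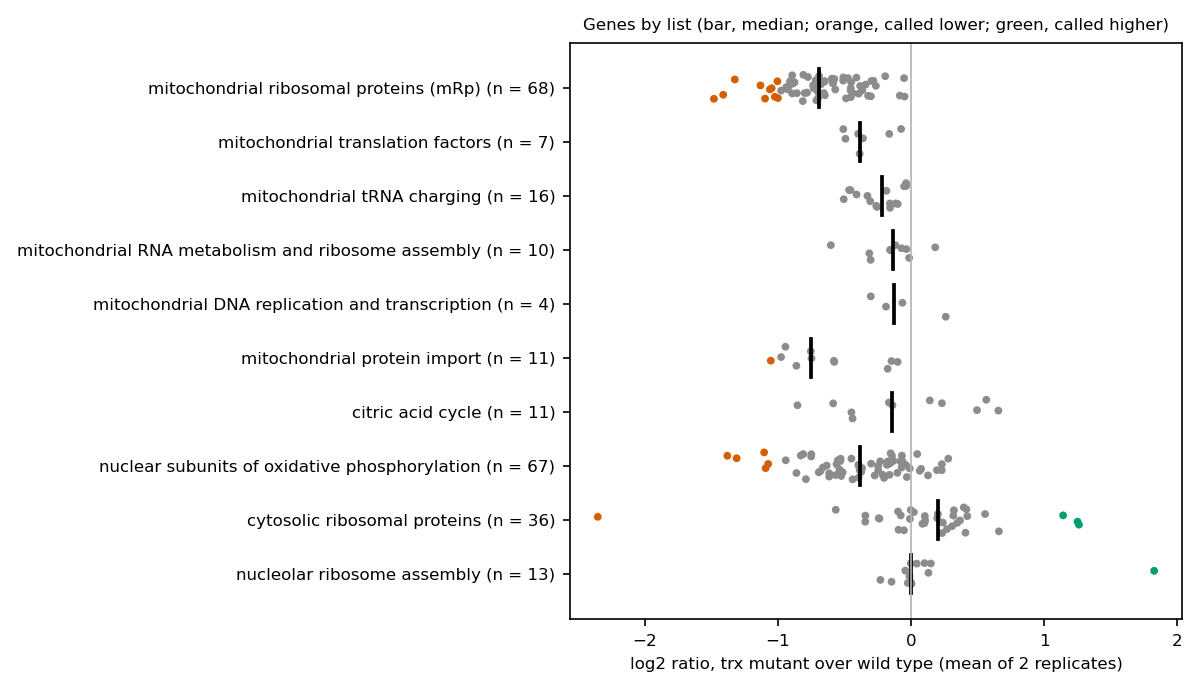
Log2 ratios (x axis, mean of 2 replicates) of single genes in the mitochondrial ribosomal protein set and 9 other lists (y axis, n tested in brackets), with the median as a bar and genes called lower (orange) or higher (green). Mitochondrial lists lie to the left of 0 to different extents, and cytosolic ribosomal proteins have a median of 0.20.

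Other genes of mitochondrial translation were read from lists of gene symbols compiled by known function. *bonsai*, which encodes the mitochondrial S15 protein under a symbol outside the naming rule, gave -1.03, -0.98, -1.06 and -1.06. All 4 arrays were alike, and it was called lower (mean -1.03, SE 0.050, limma adjusted p = 0.019). *tko*, the S12 protein of the decoding site, had no probe of its own that could be used. None of the 7 translation factors tested was called at 2-fold, and their median was -0.39. At any fold 2 (28.6%) were lower, beside 8.18% of all genes. These were mEFTu1, which brings aminoacyl-tRNA to the ribosome (-0.51, limma adjusted p = 0.036), and mEFG1, which moves it along (-0.49, limma adjusted p = 0.036). The 16 genes of mitochondrial tRNA charging had a median of -0.22, with 0 called. They were 13 aminoacyl-tRNA synthetases (median -0.26), the amidotransferase subunits GatA and GatB, and Slimp, a protein related to the seryl-tRNA synthetase. Lower at any fold (18.8% of the 16) were ValRS-m (-0.41, limma adjusted p = 0.043), ArgRS-m (-0.51, limma adjusted p = 0.032) and GatA (-0.46, limma adjusted p = 0.045).

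Of 10 genes of mitochondrial RNA metabolism and ribosome assembly, 0 were called and 1 (10%) was lower at any fold, beside 8.18% of all genes. It was bsf, an RNA-binding protein that stabilises mitochondrial transcripts (-0.60, limma adjusted p = 0.028), and the list median was -0.14. The 4 genes of mitochondrial DNA replication and transcription had a median of -0.13, and none passed the test. The components of protein import, which bring ribosomal proteins into the organelle, were nearer to the ribosomal proteins. Their 11 genes had a median of -0.75, with 7 (63.6%) lower at any fold. Tim9a, a small chaperone of the intermembrane space, was the 1 gene called lower (-1.06, -1.08, -0.99 and -1.07, mean -1.05, limma adjusted p = 0.019). Of 11 citric acid cycle genes, 2 (18.2%) were lower and 1 was higher at any fold and 0 were called, with a median of -0.14. No probe in the platform annotation carried the identifier, symbol or synonym of any of the 13 protein genes of the mitochondrial genome, which were therefore not analysed here.

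The nuclear subunits of oxidative phosphorylation, many being partners of the proteins that the mitochondrial ribosome makes, had a median of -0.39 over 67 genes. The list was taken by symbol, so it includes paralogs such as ATPsynbetaL (-0.16) and Cyt-c1L (-0.08), and the Sdh genes of complex II. Subunits under other symbols are left out, and how far this moves the median was not examined. Of the 67 genes, 5 (7.46%) were called lower and 16 (23.9%) were lower at any fold, beside 2.52% and 8.18% of all genes. UQCR-6.4, a subunit of complex III, gave -1.52, -1.08, -1.87 and -1.05. ND-MLRQ gave -1.28, -0.76, -1.92 and -1.28. Their means were -1.38 (limma adjusted p = 0.019) and -1.31 (limma adjusted p = 0.048), with the lowest value of each on array 3. The list median was -0.27 in replicate 1 and -0.52 in replicate 2, a wider gap than between the medians of the mitochondrial ribosomal proteins. The difference between the lists was not tested.

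The cytosolic ribosomal proteins, taken by symbol, had a median of 0.20 over the 36 genes tested of 92 listed. Of the 36, 1 (2.78%) was called lower and 3 were called higher, beside 2.52% and 1.57% of all genes. The list includes paralogs and genes with -like symbols, such as RpL24-like (1.14, limma adjusted p = 0.030), which was among the 3 called higher. The gene called lower was RpL27, at -2.44, -2.59, -2.27 and -2.11 (mean -2.35, limma adjusted p = 0.019). RpS5b, a paralog of RpS5a, was called higher, at 1.46, 1.45, 1.12 and 0.97 (mean 1.25, limma adjusted p = 0.036). RpL23 had values only on the Cy5 arrays, 1.11 and 1.41 (limma adjusted p = 0.029). The list median depended on the dye, at -0.04 in Cy3 and 0.45 in Cy5, so that its sign turned. Probes of cytosolic ribosomal proteins can share sequence with paralogs, which was not examined. Of 13 genes of nucleolar ribosome assembly, Non1, a GTPase of large cytosolic subunit assembly, was called higher (1.83, limma adjusted p = 0.019), and the median was -0.00.

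Across the 4 arrays, 11199 to 12775 spots had a value and array medians were -0.03 to -0.01. Arrays of one replicate correlated at 0.90 and 0.88 (Pearson) over probes, and arrays of different replicates at 0.71 to 0.82. RNA of *trx* itself was measured on arrays 2 to 4, at 0.22, 0.13 and 0.28 (mean 0.21, limma adjusted p = 0.086), and whether its probe bears on these alleles is not known. Tissue markers moved as well. Among all genes tested, 2.52% were called lower and 1.57% higher. Both larval epidermis markers tested, of 8 listed, were called lower (list median -4.49). They were Lcp65Ag2 (-4.08) and Lcp65Ag3 (-4.90), related cuticle genes of the Lcp65A cluster on 3L, so they are not separate signs of that tissue. Of 7 haemocyte markers, 1 was called lower (Nplp2, -1.71). The haemocyte list was split, with 4 of 7 genes below 0, 3 lower and 1 higher at any fold, and a median of -0.35. Of 3 fat body markers, 1 was called higher (Lsp2, 3.98, list median 1.08), as was 1 of 3 salivary gland markers (Sgs5, 3.78, list median 1.02). Sgs5 had values only on the Cy3 arrays, 4.56 and 3.01. Sgs4 (1.02) and Sgs1 (-0.12) of the same list did not pass the test. No gene of the other lists was called, with list medians of -0.06 (8 muscle genes), -0.01 (5 nervous system), 0.23 (4 imaginal disc) and 0.02 (4 testis). The 8 midgut markers were all above 0 and up to 2.51, without passing the test, and their median was 0.99 in replicate 1 and 0.06 in replicate 2 (0.52 for the means). Ratios give no level of any tissue, and the part of tissue make-up in the values of the mitochondrial ribosomal proteins was not tested.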

How the data were processed

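Each spot carried a log2 ratio, mutant relative to wild type, in the table the authors deposited. Per the study's methods, arrays were scanned with GenePix Pro 6, spots failing quality thresholds were removed, background was corrected (normexp, limma), each array was normalised with OLIN and arrays were scaled to one another. Such steps set each ratio relative to the other genes of the array. Intensities were not used here, so no ratio could be weighed by its signal, and precision is limited by how few arrays there are. The sign and log base were checked against the study's gene lists: 190 of 190 over-expressed genes were above 0 and 231 of 232 under-expressed genes below 0, and every such gene had a probe with a mean of at least 1 in size. Lists of the authors' own comparisons were used for nothing else.

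Of 16416 probes, 13164 named 1 gene in the platform annotation, and the rest were left out. Current symbols came from the NCBI gene table (assembly Release 6 plus ISO1 MT) for 12674 of these, and it also gave arms and gene order. Its 73 mRp symbols include 4 without a probe of their own (mRpL14, mRpL34, mRpL47 and mRpL53). Probes of a gene were averaged on each array, then over the dye pair, and both replicate values entered an intercept fit (limma 3.58.1, R 4.3.3; prior degrees of freedom 1.80), 2-sided, adjusted over all 10042 genes. The scripts were tested on simulated data. Named were all genes called, the 12 lowest and 6 highest with values on 4 arrays, and of other lists the called genes with the largest changes, at most 2 in each direction. Other genes were named for their site or after their values were seen. Lists of pathways and tissue markers were written by function from current symbols, and oxidative phosphorylation subunits and cytosolic ribosomal proteins were taken by symbol. The genes and lists were chosen with earlier results of these data known. Alternatives were other treatments of replicate and dye, leaving out an array or replicate, median centring, quantile normalisation, genes with 4 values, median over probes, a robust prior, a minimum of 1.5-fold and platform symbols.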

Additional observations from a re-analysis of the deposited data

How the results depend on the processing

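Of the 18 mitochondrial ribosomal protein genes named by rule, only mRpL45 turned its direction under an alternative, at 0.05 without replicate 1. Over the settings that left out 1 array, the count of mitochondrial ribosomal protein genes called lower ran from 6 to 13 and that of the large subunit from 2 to 8, both lowest without array 3. Over these and the settings that left out 1 replicate, the large subunit median ran from -0.72 to -0.63, and the large minus small difference from 0.0022 to 0.11. With a minimum of 1.5-fold, 41 genes were called (25 large and 16 small), beside 5.34% of all genes, and 22 in the other mitochondrial lists in place of 7. Centring each array on its median left 3 large subunit genes called, without mRpL17, mRpL23 and mRpL55. With mutant RNA in Cy3 only, chosen after seeing the data, the large subunit median was -0.78 and the large minus small difference -0.056. In Cy5 only they were -0.58 and 0.11, with 3 large subunit genes called. The count lower at any fold, 53, ran from 42 (without array 1) to 64 (replicate as a random block, or a dye term), over which the share of all genes ran from 6.39% to 21.0%. No paired analysis was possible because each array already sets mutant against wild type and the labels give a single group. Values are ratios from 2 extractions, so the p-values rest on 1 residual degree of freedom plus the prior.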
